A study of Homo sapiens with 12 samples.

Results

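C28/I2 cultures, a human chondrocyte line, that received the TCM formula SKHS together with the chemokine SDF-1α were compared with cultures that received SDF-1α alone. Every gene with a value for this comparison in the authors' deposited table was taken, which gave 18251 of the 19215 genes listed, from 6 of the series' 12 cultures. The SDF1_SKHS group held 3 cultures with 50 nM SDF-1α and 1% SKHS, a traditional Chinese medicine preparation whose contents the labels do not describe. The SDF1 group held 3 cultures with 50 nM SDF-1α. Both were collected after 48 h. A further 3 cultures with 50 nM SDF-1α and 10 µM astragaloside IV (SDF1_AS4) and 3 cultures with 0.5% DMSO and no chemokine (DMSO) are used below only to place the SKHS result. C28/I2 is an immortalised line of human chondrocytes, the cells of cartilage, so all cultures come from a single cell source. DMSO is named in the labels of the DMSO group alone and no vehicle is named for SKHS. A solvent added with SKHS therefore cannot be told apart from SKHS itself. The labels do not say whether the SDF-1α groups held DMSO. In every comparison with the DMSO group, SDF-1α and a difference in DMSO cannot be told apart. Bulk transcriptomic sequencing was done on total RNA, and the series asks whether natural products described as antagonists of CXCR4, the SDF-1α receptor, block the signalling that the chemokine starts.

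A cell that lacks amino acids, or whose endoplasmic reticulum or mitochondria are under stress, phosphorylates the initiation factor eIF2α. General translation then falls while the transcription factor ATF4 is made, and ATF4 switches on genes for amino acid uptake, amino acid synthesis and tRNA charging. Dividing cells make the transcripts of replication and mitosis in a timed order under the E2F factors and the MuvB complexes, and p53 represses many of them through its target CDKN1A. Cholesterol synthesis is controlled by SREBP2, which is released from the endoplasmic reticulum when membrane sterol is low.

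The authors' deposited table gives each gene's log2 fold change with its p-value and adjusted p, and holds no value per culture. The spread among cultures, their depth and their match to the labels could therefore not be shown. Log2 fold changes are given as SDF1_SKHS over SDF1 unless another pair is named. The value after ± is the standard error implied by the authors' p-value, and where it is 0.3 or less the gene is called precisely measured. These made up 12028 genes, or 65.9% of those with a value. Since the cultures are of 1 line, p-values here reflect only how much these cultures varied, which may be technical variation. Of 11 chondrocyte markers 10 had a value and 4 were precisely measured, with a median implied standard error of 0.527. The main cartilage collagen, COL2A1, had -0.08 ± 2.30, so it could not be measured here.

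SKHS changed about as many genes upward as downward. Of 18251 genes in the authors' deposited table, 5918 (32.4%) passed an adjusted p of 0.05, of which 2877 (15.8% of all) were higher and 3041 (16.7%) lower. Every list count of SDF1_SKHS over SDF1 below is to be read beside these shares. Most changes were small. Among precisely measured genes that passed, the median log2 fold change was 0.43 for the 2724 higher genes and -0.51 for the 2890 lower genes. Changes of 2-fold or more numbered 310 among higher genes (1.7% of all tested) and 515 among lower genes (2.82%). The largest precise changes lay on the higher side, where 16 precise genes passed 4-fold, against 12 on the lower side. The median of precisely measured genes was 0.01, and no shift was taken off. DESeq2 scales libraries to a common typical gene, so a median near 0 could not show a general change in RNA amount. If the authors' statistic is read against Student's distribution (t) with 4 degrees of freedom rather than the normal, the counts drop to 524 higher and 826 lower genes, and 128 of the 329 genes picked by the naming rule lose their call. Under this t alternative, which was run on the lists after the data were seen, 33 of 38 ATF4 pathway gains, 69 of 69 mitosis losses, 34 of 43 replication losses and 22 of 26 cholesterol losses were called. Lists of small changes kept far fewer calls, and their counts are given beside them. Among genes named below with a call, FGF21, PPP1R15B, PYCR1, MCM6, CCNE1, CDKN1C, TUBA4A, MDM4, POLH, BCL2L11, NPC1, NPC2, ERN1, HSPA9, DNAJB6, MT2A, FTL, FTH1, DUSP4, DUSP6, CSF2, SAA1 and TIMP1 lost it, with adjusted p from 0.0501 to 0.224. Astragaloside IV added to the same SDF-1α cultures had 65 of 18133 genes past the threshold (0.358%).

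**Figure D1:**
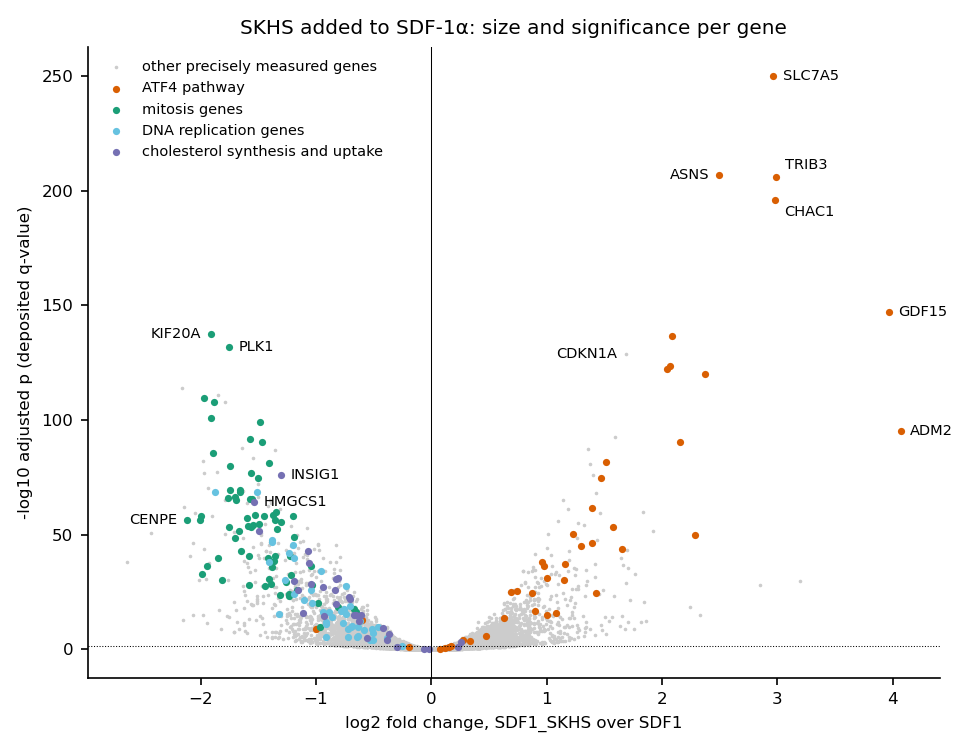
Log2 fold change of SDF1_SKHS over SDF1 (x axis) against the negative log10 of the deposited adjusted p (y axis) for the 12028 precisely measured genes, with 4 gene lists coloured and the dotted line at an adjusted p of 0.05. ATF4 pathway genes fill the upper right, with SLC7A5 the most significant, and mitosis genes fill the left side down to the log2 fold change of CENPE (-2.12).

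The 12 highest precise changes were led by secreted stress peptides and amino acid genes. In the authors' deposited table ADM2, which encodes the hormone adrenomedullin 2, rose by 4.07 ± 0.19 on the log2 scale (16.8-fold, adjusted p = 1.01e-95). GDF15, a stress-induced cytokine of the TGF-β family, rose by 3.97 ± 0.15 (15.7-fold, adjusted p = 5.51e-148). SPX, which encodes the peptide hormone spexin, rose by 3.20 ± 0.27. TRIB3, a pseudokinase that dampens ATF4 signalling, had 2.99 ± 0.10, and CHAC1, an enzyme that breaks down glutathione, had 2.98 ± 0.10. SLC7A5, the large neutral amino acid carrier LAT1, had 2.97 ± 0.09 and the smallest p-value of all genes (7.82-fold, adjusted p = 4.73e-251). It lies on chromosome 16, positions 87830023 to 87869488 of GRCh38 in GENCODE 29. RAB39B, a vesicle GTPase, rose by 2.85 ± 0.25, asparagine synthetase (ASNS) by 2.49 ± 0.08, the cystine carrier SLC7A11 by 2.37 ± 0.10 and the stress factor ATF3 by 2.29 ± 0.15. The other two of the 12 were NUTM2B (2.33 ± 0.28), which has near-identical copies and is uncertain, and LOC112268238 (2.24 ± 0.24).

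The 12 lowest precise changes were mostly genes of chromosome segregation and DNA maintenance. The DNA helicase PIF1 had -2.64 ± 0.20 in the authors' deposited table, a 6.23-fold loss with an adjusted p of 1.26e-38. PCYOX1L, a relative of prenylcysteine oxidase, had -2.43 ± 0.16. The spindle protein FAM83D had -2.16 ± 0.09, and MXD3, a partner of MAX, had -2.14 ± 0.13. The kinetochore motor CENPE had -2.12 ± 0.13, the kinetochore scaffold KNL1 -2.04 ± 0.12, and the helicases RTEL1 and ERCC6L -2.09 ± 0.15 and -2.02 ± 0.17. DEPDC1B had -2.06 ± 0.14, the spindle pole protein ASPM -2.0 ± 0.12, the cytokine CTF1 -2.06 ± 0.24 and the neuronal splicing factor RBFOX3 -2.15 ± 0.28. The smallest p-values among lower genes belonged to the mitotic kinesin KIF20A (-1.91 ± 0.08, adjusted p = 3.52e-138) and the kinase PLK1 (-1.75 ± 0.07, adjusted p = 8.55e-133). MEGF6, an EGF-repeat protein that was also among the 6 smallest, had -1.84 ± 0.08. Centring on the median moved fold changes by only 0.01, and all 12 highest and 12 lowest genes still passed the threshold.

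Genes of the ATF4 pathway rose together and formed the largest gain among 49 gene lists. By the authors' deposited table, 38 of 46 measured members were higher (15.8% of all genes were) and 2 lower (16.7%), with a median log2 fold change of 1.19, against 0.00 over all 18251 genes. At least 2-fold gains were seen in 27 members, against 1.7% of all genes.

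Upstream, the kinases of this list that phosphorylate eIF2α had small or lower RNA values. Their activity was not measured. EIF2AK3, the endoplasmic reticulum kinase PERK, had -1.0 ± 0.15, a 2-fold loss, and EIF2AK4, the amino acid sensor GCN2, had 0.17 ± 0.07 and did not pass. EIF2AK1, the kinase linked to haem and mitochondrial stress, had 0.15 ± 0.08 and did not pass. A further eIF2α kinase outside the kinases of this list, EIF2AK2 (PKR), was higher by 0.38 (adjusted p = 3.17e-05). Its call is lost under the t alternative (adjusted p = 0.0759). The 2 phosphatase subunits that reverse the phosphorylation were higher, PPP1R15A (GADD34) at 0.63 ± 0.08 and PPP1R15B at 0.47 ± 0.09.

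Of 8 transcription factors and cofactors 7 rose. ATF4 itself had 0.97 ± 0.07 (1.96-fold, adjusted p = 7.13e-37). Its partner and target DDIT3, the death-linked factor CHOP, had 1.08 ± 0.12, and NUPR1, a chromatin stress protein, had 2.07 ± 0.09. CEBPG and CEBPB, which pair with ATF4, had 1.30 ± 0.09 and 0.90 ± 0.10. ATF5 was the member that did not pass (0.12 ± 0.10). All 9 effectors passed, among them the mTORC1 inhibitors DDIT4 (2.16 ± 0.10) and SESN2 (2.04 ± 0.09), the angiogenic factor VEGFA (1.4 ± 0.08) and the lipoprotein receptor VLDLR (1.0 ± 0.12). FGF21, an endocrine hormone, had 4.23 ± 1.71 with an adjusted p of 0.0426, so its size is poorly known.

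Amino acid enzymes rose in 12 of 13 cases. The serine pathway enzymes PHGDH, PSAT1 and PSPH had 1.16 ± 0.09, 2.09 ± 0.08 and 1.4 ± 0.09. The mitochondrial one-carbon enzymes SHMT2, MTHFD2 and ALDH1L2 had 0.96 ± 0.07, 1.51 ± 0.08 and 1.65 ± 0.11. In the transsulfuration path, which makes cysteine, CTH had 1.0 ± 0.08 and CBS 1.47 ± 0.08. CBS has a near-identical copy in the reference, CBSL, so its value is uncertain. The proline enzymes were split, since PYCR1 rose by 0.33 ± 0.08 and ALDH18A1 fell by 0.60 ± 0.08. Of 11 amino acid carriers 8 rose, including SLC3A2, the partner chain of SLC7A5 and SLC7A11, at 1.23 ± 0.08. The glutamine carrier SLC38A2 had -0.19 ± 0.10 and did not pass.

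**Figure D2:**
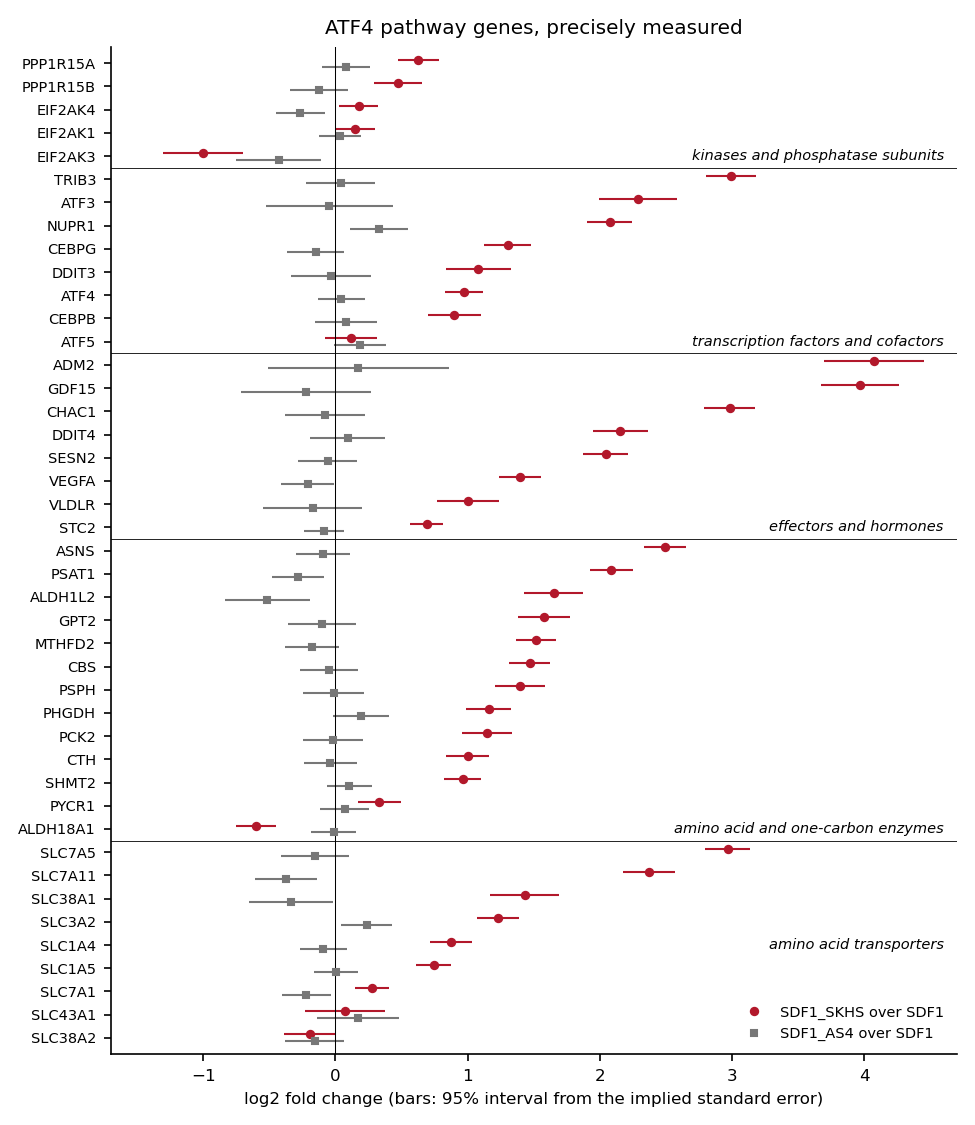
Log2 fold changes (x axis) of the precisely measured ATF4 pathway genes by role, with 95% intervals from the implied standard error, for SDF1_SKHS over SDF1 (circles) and SDF1_AS4 over SDF1 (squares). The circles run from EIF2AK3 at -1.0 to ADM2 at 4.07, while none of the squares passed an adjusted p of 0.05.

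SKHS was also set directly against astragaloside IV. No ATF4 pathway member passed in SDF1_AS4 over SDF1 (0.358% of all genes did). In the direct comparison computed from 2 deposited fold changes, in which the SDF1 cultures drop out, 36 of 45 members were higher in SDF1_SKHS than in SDF1_AS4 (8.5% of all genes were) and 1 was lower. SDF1_SKHS over DMSO, computed as the sum of 2 deposited fold changes, had 34 of 46 members higher (18.1% of all genes) and 2 lower.

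The promoters of the matched members were searched on both strands, over the 250 bases before the RefSeq start, for the composite letters TGATGNAA that C/EBP and ATF dimers read. The letters were chosen with the list's values known, and the search found them in 5 of 36 ATF4 pathway promoters (13.9%), against 275 of 14116 promoters of all tested genes (1.95%). Of 16 matched tRNA synthetase promoters 2 (12.5%) held them. A match is a description and not a bound site. The promoters of CHAC1 and ASNS are printed. Both were picked for large gains from precisely measured, higher members whose promoter held a match. They are from RefSeq on GRCh38.p14, 5′ to 3′ in the gene's direction, with the match in capitals (read on the opposite strand in CHAC1), which begins 209 bases before the start in CHAC1 and 68 bases before it in ASNS.

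CHAC1, chr15:40953221-40953470, plus strand: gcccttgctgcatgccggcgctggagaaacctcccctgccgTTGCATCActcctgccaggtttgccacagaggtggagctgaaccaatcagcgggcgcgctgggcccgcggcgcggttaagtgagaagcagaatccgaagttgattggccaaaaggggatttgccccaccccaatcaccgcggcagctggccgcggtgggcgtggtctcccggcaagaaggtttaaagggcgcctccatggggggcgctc

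ASNS, chr7:97872409-97872658, minus strand: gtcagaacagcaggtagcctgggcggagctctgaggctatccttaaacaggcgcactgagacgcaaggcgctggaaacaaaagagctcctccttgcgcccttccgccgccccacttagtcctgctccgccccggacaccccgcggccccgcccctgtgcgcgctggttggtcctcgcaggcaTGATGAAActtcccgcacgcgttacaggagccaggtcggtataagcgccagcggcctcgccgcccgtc

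Most cytosolic tRNA synthetases, which load each tRNA with its amino acid, rose. The authors' deposited table had 14 of 20 higher and 1 lower, with a median log2 fold change of 0.57. The glycyl enzyme GARS1 had 1.36 ± 0.07 (2.56-fold, adjusted p = 3.32e-88), and WARS1 (tryptophanyl), MARS1 (methionyl), SARS1 (seryl) and YARS1 (tyrosyl) lay between 1.0 and 1.14. The valyl enzyme VARS1 fell by 0.65 ± 0.09. FARSB, QARS1, RARS1 and FARSA did not pass and ranged from -0.13 to 0.15. In SDF1_SKHS over SDF1_AS4 12 of the 20 were higher and 1 lower. Translation factors were mixed, with 14 of 45 ribosome biogenesis and translation genes higher and 9 lower (6 and 5 under the t alternative). Of these EIF2S2, the β subunit of eIF2, rose by 0.88 ± 0.07, and the elongation kinase EEF2K fell by 1.16 ± 0.10, as did the helicase EIF4A2 by 1.11 ± 0.09.

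Every measured mitosis gene fell. The authors' deposited table had 69 of 69 lower (16.7% of all genes were), 64 of them by at least 2-fold (2.82% of all genes), with a median log2 fold change of -1.53. These are bulk cultures, so fewer cells in division and less of this RNA per cell cannot be told apart. The mitotic kinases ran from MELK (-1.04 ± 0.09) to PLK1 (-1.75 ± 0.07), with the entry kinase CDK1 at -1.45 ± 0.09 and its cyclin CCNB1 at -1.56 ± 0.08. The 12 kinesins, motors that build and slide the spindle, ran from KIF22 (-1.33 ± 0.09) to KIF14 (-1.99 ± 0.16). The 15 kinetochore and centromere proteins ran from HJURP (-1.19 ± 0.08) to CENPE (-2.12 ± 0.13). The proliferation antigen MKI67 had -1.97 ± 0.09 (3.92-fold lower, adjusted p = 2.06e-110), and topoisomerase TOP2A had -1.69 ± 0.10. The factors that drive this programme, FOXM1 and MYBL2, fell by 0.67 ± 0.07 and 0.81 ± 0.09.

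Replication genes fell by smaller amounts. All 43 measured members were lower, 14 of them by at least 2-fold, with a median of -0.78. The licensing and origin genes had a median of -0.73 over 17 members, with MCM6 at -0.38 ± 0.08 and ORC1 at -1.32 ± 0.16. The 18 fork genes had a median of -0.84. The clamp PCNA, a p53 target as well, had -0.47 ± 0.07, and the Okazaki fragment ligase LIG1 had -1.87 ± 0.10 (3.66-fold lower, adjusted p = 4.06e-69). Among enzymes that make deoxynucleotides the ribonucleotide reductase subunit RRM2 had -1.51 ± 0.08 and thymidine kinase TK1 -1.24 ± 0.09. DNA repair genes had 29 of 34 lower and 0 higher (18 lower under the t alternative), with a median of -0.77, led by the Fanconi genes FANCB (-1.58 ± 0.20) and FANCI (-1.50 ± 0.11) and the recombination gene RAD51AP1 (-1.36 ± 0.14).

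**Figure D3:**
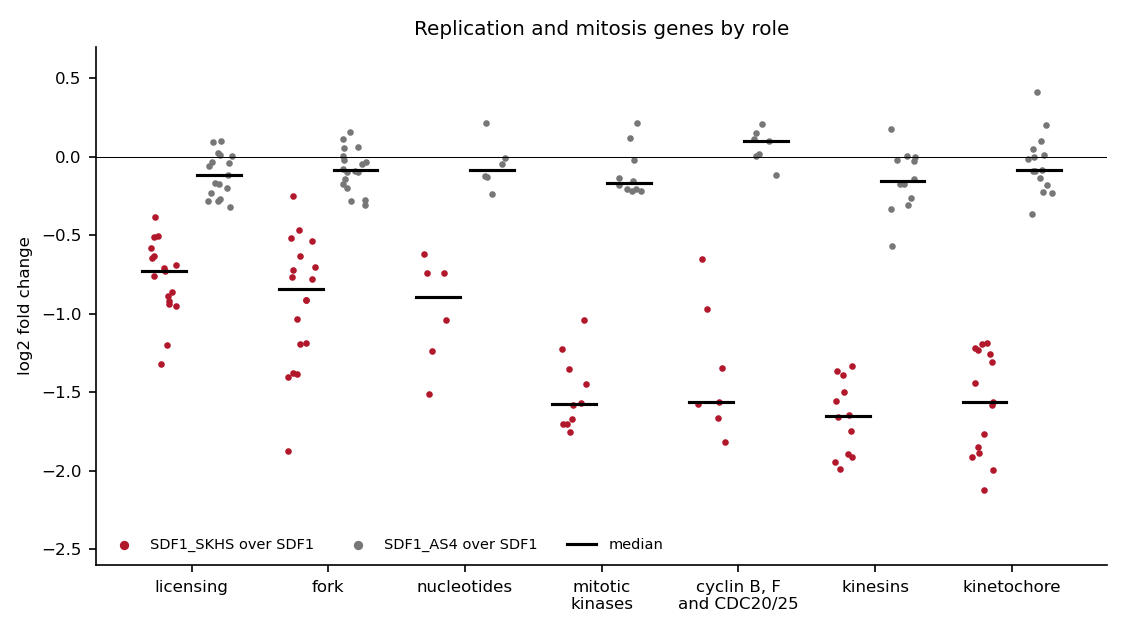
Log2 fold changes (y axis) of replication and mitosis genes by role for SDF1_SKHS over SDF1 (red, left in each pair) and SDF1_AS4 over SDF1 (grey, right), with each gene as a point and the median as a bar. All red points lie under 0, and the 4 mitosis roles plotted have medians between -1.65 and -1.56, against -0.89 to -0.73 for the 3 replication roles plotted. Roles not plotted have -1.46 and -1.23 for mitosis and -1.18 for replication.

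The G1 regulators moved in both directions. Of 29 measured 6 rose and 15 fell, beside 15.8% and 16.7% of all genes. Under the t alternative 2 rose and 10 fell. The CDK inhibitor CDKN1A (p21) rose by 1.69 ± 0.07 (3.23-fold, adjusted p = 2.1e-129), CDKN1C (p57) by 1.28 ± 0.39, and the cyclins CCND2 and CCNE1 by 1.10 ± 0.12 and 0.52 ± 0.12. The inhibitors of the INK4 class CDKN2C, CDKN2D and CDKN2B fell by 1.63 ± 0.11, 1.48 ± 0.18 and 0.68 ± 0.10. Cyclin CCNE2 fell by 1.84 ± 0.21 and CCNA2 by 1.39 ± 0.08, while CCND1 had -0.05 ± 0.06 and did not pass. CCNE2 was lower also in SDF1_AS4 over SDF1 (-0.86, adjusted p = 0.0433). Of 8 E2F genes 4 fell and 1 rose, with the activators E2F1 and E2F2 at -0.70 ± 0.10 and -1.10 ± 0.17. Tubulins, the subunits of microtubules, were lower in 12 of 17 cases and higher in 2 (8 and 0 under the t alternative), with TUBB3 at -1.14 ± 0.08, TUBA1B at -0.94 ± 0.07, the tubulin-binding STMN1 at -1.02 ± 0.07, and TUBA4A at 0.42 ± 0.08.

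The same lists were read against both other groups. In SDF1_SKHS over SDF1_AS4 all 69 mitosis genes were lower (10.4% of all genes were) and 38 of 43 replication genes. In SDF1_SKHS over DMSO all 69 mitosis genes were lower (19.1% of all genes were), with a median of -1.44, and 42 of 43 replication genes, with a median of -1.13. SDF1 over DMSO alone had a median of 0.03 for mitosis genes and -0.31 for replication genes.

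Promoters of the mitosis list were searched for TTTGAA, the cell cycle homology region read by MuvB complexes, and for CCAAT, the NF-Y box, again with the values known. TTTGAA occurred in 28 of 62 mitosis promoters (45.2%), against 9.88% of 14116 promoters. CCAAT occurred in 40 of 62 (64.5%), against 34.6%. In replication promoters the E2F letters TTTGGCGC occurred in 4 of 38 (10.5%), against 0.808%. The promoters of MKI67 and ASPM are shown. Both were picked for large losses from precisely measured, lower mitosis genes whose promoter held a match. Their TTTGAA matches, or its reverse complement in ASPM, are in capitals and begin 47 and 29 bases before the start in MKI67 and 113 bases before it in ASPM.

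MKI67, chr10:128126424-128126673, minus strand: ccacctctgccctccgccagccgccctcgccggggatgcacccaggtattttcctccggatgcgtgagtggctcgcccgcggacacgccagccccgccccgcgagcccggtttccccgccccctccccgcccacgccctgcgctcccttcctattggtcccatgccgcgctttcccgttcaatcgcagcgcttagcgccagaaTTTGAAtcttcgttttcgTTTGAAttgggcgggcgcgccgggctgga

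ASPM, chr1:197146670-197146919, minus strand: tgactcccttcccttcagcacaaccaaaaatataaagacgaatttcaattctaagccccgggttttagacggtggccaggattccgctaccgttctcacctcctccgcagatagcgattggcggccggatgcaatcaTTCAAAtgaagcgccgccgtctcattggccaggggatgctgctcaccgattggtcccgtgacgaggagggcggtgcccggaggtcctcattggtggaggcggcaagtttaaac

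Targets of p53 rose beside CDKN1A. Of 34 measured targets in the authors' deposited table, 26 were higher and 2 lower, with a median log2 fold change of 0.69, and under the t alternative 17 were higher and 0 lower. GDF15 and SESN2 in this list also belong to the ATF4 list. Without those, the arrest genes BTG2 and PLK3 had 1.42 ± 0.12 and 1.25 ± 0.11, and MDM2, the ligase that degrades p53, had 1.27 ± 0.08. The BH3 gene BBC3 (PUMA), which promotes cell death, had 1.69 ± 0.15 (3.23-fold, adjusted p = 2.18e-29), and TIGAR and RRM2B had 1.18 ± 0.12 and 1.09 ± 0.11. MDM4, the other p53 inhibitor, fell by 0.48 ± 0.13, and the repair polymerase POLH fell by 0.29 ± 0.09. Among 16 BCL2 family genes 7 rose and 1 fell, beside 15.8% and 16.7% of all genes. Under the t alternative 4 rose and 0 fell. The called genes included the BH3 genes HRK (1.34 ± 0.13) and BMF (0.81 ± 0.10) and the survival gene BCL2L1 (0.46 ± 0.07), whereas BCL2L11 (BIM) fell by 0.39 ± 0.16. MCL1 had -0.01 ± 0.07.

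Cholesterol synthesis fell along nearly the whole pathway. Of 32 measured genes of synthesis, uptake and control in the authors' deposited table, 26 were lower and 1 higher, with a median log2 fold change of -0.76. Among the 20 enzymes 18 were lower. HMGCS1, an early enzyme of the pathway, had -1.53 ± 0.09 (2.90-fold lower, adjusted p = 5.99e-65). MVD, LSS, DHCR7 and SQLE, which stand further along the pathway, ranged from -1.19 to -1.04. PMVK (-0.30 ± 0.14) and TM7SF2 (-0.06 ± 0.24) did not pass. Of 6 genes of sterol uptake and transport 4 fell and 1 rose. NPC1, which moves sterol out of the lysosome, fell by 0.37 ± 0.07, and NPC2, the carrier that hands sterol to it, rose by 0.26 ± 0.07. The factor SREBF2 fell by 0.71 ± 0.07, and INSIG1, which holds it in the endoplasmic reticulum and is its own target, fell by 1.30 ± 0.07 (2.46-fold lower).

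SDF-1α cultures and DMSO cultures had differed in the other direction for many of these genes. SDF1 over DMSO had 22 of 32 members higher (17.2% of all genes were) and 3 lower (17.5%), with a median of 0.46. The 2 comparisons share the SDF1 cultures, so a chance deviation of those cultures would move them in opposite directions. In SDF1_SKHS over DMSO, where the SDF1 cultures drop out, 2 members were higher and 13 lower, with a median of -0.22. HMGCS1 had -0.42 ± 0.13 in SDF1_SKHS over DMSO, against 1.12 ± 0.10 in SDF1 over DMSO. ACAT2 had 0.36 ± 0.11 in SDF1_SKHS over DMSO and 1.19 ± 0.09 in SDF1 over DMSO. INSIG1 had -0.20 ± 0.11 in SDF1_SKHS over DMSO, which did not pass, and 1.10 ± 0.08 in SDF1 over DMSO. Against astragaloside IV 23 of 32 members were lower in SDF1_SKHS and 0 higher.

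**Figure D4:**
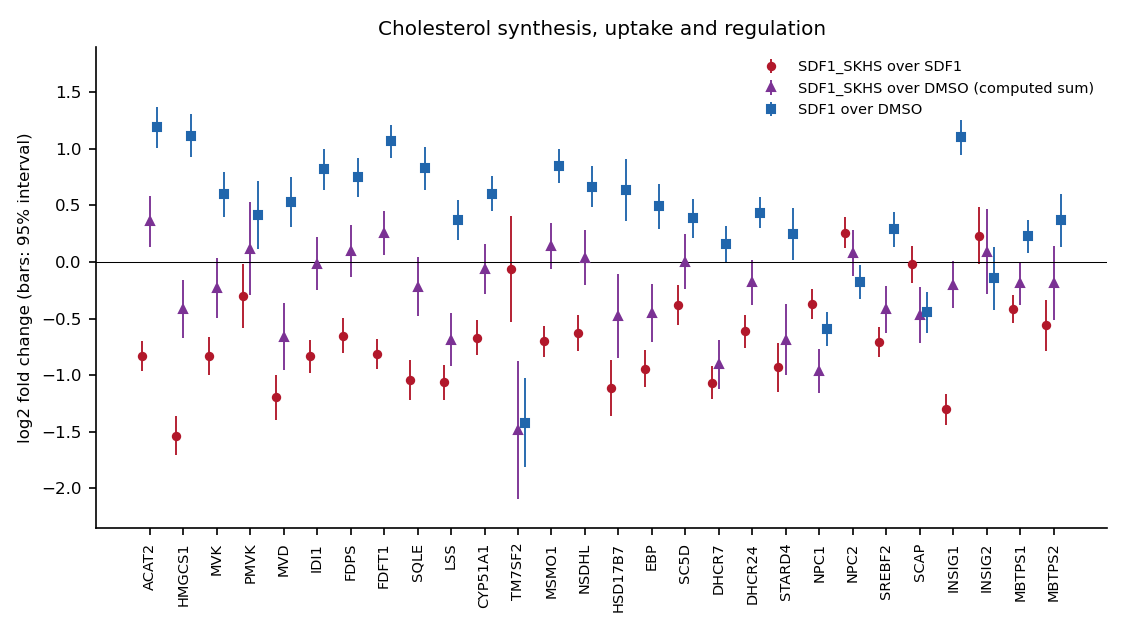
Log2 fold changes (y axis, 95% intervals) of precisely measured cholesterol genes in pathway order for SDF1_SKHS over SDF1 (circles), SDF1_SKHS over DMSO (triangles, computed sum) and SDF1 over DMSO (squares). Most circles lie under 0 and most squares above it, with HMGCS1 at -1.53 and 1.12. Each triangle is the sum of its circle and square, so it must lie between the 2 where their signs differ. The triangles of NPC1, SCAP and TM7SF2 do not lie between them.

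Of the 25 matched promoters in this list 3 (12%) held the sterol response letters TCACNCCA, against 3.06% of all tested promoters. The promoter of MVK, mevalonate kinase (-0.83 ± 0.09), is printed as a pathway enzyme with a match, in capitals, that begins 195 bases before the start.

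MVK, chr12:109573544-109573793, plus strand: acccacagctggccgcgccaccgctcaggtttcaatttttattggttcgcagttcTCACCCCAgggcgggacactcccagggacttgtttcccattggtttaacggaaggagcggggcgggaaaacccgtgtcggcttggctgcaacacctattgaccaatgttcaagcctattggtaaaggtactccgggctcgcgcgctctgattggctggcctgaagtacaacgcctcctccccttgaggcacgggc

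Fatty acid synthesis genes were mostly lower as well. The fatty acid list of 35 genes had 5 higher and 12 lower in the authors' deposited table, and its 14 synthesis genes had 1 higher and 8 lower. Under the t alternative the list had 2 higher and 7 lower. The elongase ELOVL5 had -1.15 ± 0.10, fatty acid synthase FASN -0.95 ± 0.08, the desaturase SCD -0.83 ± 0.06 and their factor SREBF1 -0.81 ± 0.09. The oxidation enzyme HADH had -1.05 ± 0.10. The nuclear receptors PPARG and PPARA, which control fat storage and use, rose by 0.68 ± 0.11 and 0.56 ± 0.09.

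Sugar metabolism was split between its branches. Among 23 glycolysis genes 15 fell and 0 rose, with ALDOC at -1.33 ± 0.10, PGK1 at -0.82 ± 0.06 and lactate dehydrogenase LDHA at -0.79 ± 0.06. Among 7 pentose phosphate genes of the same list, which supply NADPH and ribose, 5 rose and 0 fell, with transketolase TKT at 0.84 ± 0.07 and PGD at 0.72 ± 0.07. Both branches together had 5 higher and 15 lower, and under the t alternative 2 higher and 8 lower. SDF1 over DMSO, which shares the SDF1 cultures, had 13 of these 30 genes higher (17.2% of all genes) and 5 lower (17.5%). There ALDOC, PGK1 and LDHA had 1.05, 0.82 and 0.72. In SDF1_SKHS over DMSO 8 were higher (18.1% of all genes) and 8 lower (19.1%), with a median of 0.07. ALDOC had -0.27 ± 0.15 in that comparison and did not pass. Of 27 hypoxia genes 8 rose and 9 fell, beside 15.8% and 16.7% of all genes. Under the t alternative 3 rose and 7 fell. The targets CA9, P4HA1, PDK1 and LOX had -1.56 ± 0.16, -1.27 ± 0.09, -1.22 ± 0.12 and -1.16 ± 0.08. The 2 hypoxia targets with the largest gains, DDIT4 and VEGFA, also stand in the ATF4 list. Of the 27 hypoxia genes, 13 were higher and 2 lower in SDF1 over DMSO. In SDF1_SKHS over DMSO 12 were higher and 6 lower.

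Targets of NRF2, the factor that answers oxidants and electrophiles, rose. Of 50 measured members in the authors' deposited table, 34 were higher and 1 lower, with a median log2 fold change of 0.39, and under the t alternative 18 were higher and 1 lower. Besides SLC7A11, which also stands in the ATF4 list, OSGIN1 had 1.69 ± 0.12 (3.23-fold, adjusted p = 5.23e-44), the peroxiredoxin repair enzyme SRXN1 1.38 ± 0.07 and the quinone reductase NQO1 1.18 ± 0.07. The glutathione synthesis subunit GCLC had 1.02 ± 0.11, thioredoxin reductase TXNRD1 0.90 ± 0.07 and haem oxygenase HMOX1 0.63 ± 0.10. The gene of the factor itself, NFE2L2, had 0.68 ± 0.07. The carbonyl reductase CBR3 fell by 1.13 ± 0.14. Of 39 matched promoters 10 (25.6%) held the antioxidant response letters TGACNNNGC, against 11.8% of all tested promoters.

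Of 42 endoplasmic reticulum genes 5 rose and 19 fell in the authors' deposited table, and under the t alternative 2 rose and 6 fell. None of the 17 chaperones and folding enzymes of that list rose and 9 fell, with MANF at -0.97 ± 0.10. The main lumenal chaperone HSPA5 (BiP) had -0.15 ± 0.07 and did not pass (adjusted p = 0.0861). The sensor ERN1 (IRE1) and its target XBP1 rose by 0.81 ± 0.19 and 0.52 ± 0.08, and the degradation factor HERPUD1 by 0.84 ± 0.09, while the sensor ATF6 fell by 0.48 ± 0.08. Of 35 heat shock genes 4 rose and 15 fell, and under the t alternative 1 rose and 6 fell. The members that rose included the chaperones HSPA9 of mitochondria (0.29 ± 0.06) and DNAJB6 (0.40 ± 0.08). HSPA8 had -0.80 ± 0.07 and the cochaperone CHORDC1 -1.39 ± 0.11. HSPA1A and HSPA1B had -1.17 ± 0.08 and -1.19 ± 0.09, and being near-identical copies they are uncertain as separate values. HSF1, the factor of this response, rose by 0.65 ± 0.08. Of 6 measured metallothioneins, small proteins that bind zinc and copper, 3 fell and 0 rose, with MT1X at -1.50 ± 0.09 and MT2A at -0.98 ± 0.18. The MT1 genes are close copies, so reads may be split among them. Over the 19 genes of metallothioneins and zinc transport 1 rose and 7 fell, and under the t alternative 0 rose and 2 fell.

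The ferritin chains FTL and FTH1, which store iron, had 0.54 ± 0.09 and 0.46 ± 0.09, and the transferrin receptor TFRC, which takes it up, had -0.72 ± 0.10. TFRC was lower also in SDF1_AS4 over SDF1 (-0.52, adjusted p = 0.0433). FTL and FTH1 had 0.32 and 0.30 there and did not pass. Over 19 iron genes 6 rose and 3 fell, beside 15.8% and 16.7% of all genes. Under the t alternative 2 rose and 1 fell.

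The receptors of SDF-1α moved in opposite directions. CXCR4, which couples to Gi proteins, had -1.64 ± 0.36 in the authors' deposited table (3.11-fold lower, adjusted p = 3.63e-05). Its implied standard error is above the limit for precise genes, and the call is lost under the t alternative (adjusted p = 0.0762). ACKR3 (CXCR7), the scavenging receptor that signals through arrestin, rose by 0.82 ± 0.08 (1.77-fold, adjusted p = 2.2e-21). Against DMSO the SDF1_SKHS cultures had -1.64 ± 0.47 for CXCR4 and 1.25 ± 0.13 for ACKR3, and SDF1 over DMSO had 0.00 ± 0.30 for CXCR4 and 0.43 ± 0.11 for ACKR3. The ligand gene CXCL12 had -0.64 ± 1.53, which is too imprecise to read. Of 28 genes of the axis 4 rose and 6 fell, shares near those of all genes (15.8% higher and 16.7% lower), and under the t alternative 2 rose and 1 fell. RGS4, which switches off G proteins, fell by 0.98 ± 0.07, and GNA13, the G protein that activates RhoA, rose by 0.78 ± 0.09. Arrestins ARRB1 and ARRB2 and the kinase PTK2 did not pass, at -0.16 to -0.12.

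Immediate early genes were split. Of 27 early response and ERK feedback genes 8 rose and 7 fell, beside 15.8% and 16.7% of all genes. Under the t alternative 3 rose and 6 fell. EGR1 fell by 1.36 ± 0.12 and FOS by 1.71 ± 0.17, while ATF3, shared with the ATF4 list, and the ERK phosphatases DUSP5 (0.85 ± 0.10), DUSP4 (0.73 ± 0.16) and DUSP6 (0.73 ± 0.14) rose. EGR1 was lower also in SDF1_AS4 over SDF1 (-0.92, adjusted p = 4.73e-08), and the direct difference of SDF1_SKHS from SDF1_AS4, -0.44 ± 0.18, did not pass (adjusted p = 0.0676). Its value in SDF1_SKHS over DMSO was -0.19 ± 0.18 and did not pass, against 1.17 ± 0.14 in SDF1 over DMSO. FOS was lower than in the SDF1_AS4 cultures by 2.21 ± 0.22 on the log2 scale.

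Of 43 inflammatory genes 10 were lower and 4 higher, beside 16.7% and 15.8% of all genes, and 22 were precise. Under the t alternative 2 were lower and 0 higher. The neutrophil chemokine CXCL8 fell by 1.46 ± 0.13 (2.76-fold lower, adjusted p = 1.92e-28) and the monocyte chemokine CCL2 by 1.2 ± 0.12. Both were lower in SDF1_SKHS than in DMSO, by 0.83 ± 0.18 and 0.44 ± 0.17. The colony factor CSF2 had -1.73 ± 0.40, while the acute phase gene SAA1 had 0.71 ± 0.15. IL6 had -0.21 ± 0.58 and could not be called.

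The collagenases MMP13 and MMP1 fell in the authors' deposited table by 1.07 ± 0.19 (2.10-fold lower, adjusted p = 1.39e-07) and 0.42 ± 0.13 (1.34-fold lower, adjusted p = 0.0038), and stromelysin MMP3 fell by 0.75 ± 0.07 (1.68-fold lower, adjusted p = 2.15e-22). The calls of MMP13 and MMP1 are lost under the t alternative (adjusted p of 0.0547 and 0.131). The inhibitor TIMP1 rose by 0.49 ± 0.08, TIMP3 fell by 0.44 ± 0.07, and the aggrecanase ADAMTS5 had 2.36 ± 2.78 and could not be measured. Of 37 proteases and inhibitors 2 rose, 12 fell and 23 did not pass, beside 15.8% higher and 16.7% lower among all genes. Under the t alternative 0 rose and 3 fell. In SDF1_SKHS over DMSO MMP13, MMP3 and MMP1 had -1.64 ± 0.26, -1.34 ± 0.10 and -1.62 ± 0.18, against -0.56 ± 0.18, -0.59 ± 0.07 and -1.2 ± 0.12 in SDF1 over DMSO. These enzymes were lower in the SDF1 cultures than in the DMSO cultures, which may differ in DMSO as well as in SDF-1α.

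The chondrocyte factor SOX9 fell by 0.40 ± 0.10 and the proteoglycan aggrecan (ACAN) by 0.41 ± 0.15. Both calls are lost under the t alternative (adjusted p of 0.0893 and 0.192), and that of ACAN also without the length and GC trends (adjusted p = 0.0528). Of 22 cartilage genes 1 rose, 6 fell and 15 did not pass, beside 15.8% higher and 16.7% lower among all genes. Under the t alternative 0 rose and 1 fell. Fibrillar and microfibrillar matrix genes had 22 of 38 lower and 1 higher, with a median of -0.31, and under the t alternative 8 lower and 0 higher. Collagen I chains COL1A1 and COL1A2 had -0.69 ± 0.07 and -0.97 ± 0.07, the anchoring collagen COL7A1 -0.96 ± 0.10 and the matrix protein TGFBI -1.0 ± 0.09. Enzymes that modify collagen fell in 13 of 23 cases and rose in 1 (6 and 1 under the t alternative), with the lysyl hydroxylase PLOD2 at -1.47 ± 0.10, the prolyl hydroxylase P4HA1 at -1.27 ± 0.09 and the cross-linker LOX at -1.16 ± 0.08. Adhesion receptors had 10 of 21 lower and 2 higher (2 and 0 under the t alternative), among them ITGA10, a collagen II integrin chain of chondrocytes, at -1.31 ± 0.13.

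Ribosomal protein genes had small gains that rest on the normal distribution. Of 78 cytosolic members 61 were higher and 0 lower, against 4 and 0 under the t alternative, with a median of 0.28 and a range of -0.05 to 0.56. RPS19 had the highest value, 0.56 ± 0.08. With the trends over transcript length and GC content removed 51 were higher. In SDF1_SKHS over SDF1_AS4 1 of 78 was higher and 0 lower, with a median of 0.07. Respiratory chain subunits had 29 of 76 higher and 6 lower, which became 15 higher once those trends were removed and 1 higher under the t alternative. Mitochondrial ribosomal proteins had 23 of 76 higher and 2 lower (2 and 0 under the t alternative). The medians of these 2 lists were 0.17 and 0.14, against 0.24 and 0.15 in SDF1_AS4 over SDF1, where 0 members passed. In SDF1_SKHS over SDF1_AS4 respiratory chain subunits had 1 higher and 8 lower, and mitochondrial ribosomal proteins 3 and 2. Beside these counts stand 8.5% higher and 10.4% lower among all genes. Proteasome subunits had 4 of 34 higher and 9 lower (1 and 1 under the t alternative), beside 15.8% and 16.7% of all genes. Splicing regulators had 7 of 49 higher and 20 lower (1 and 8), with SRSF7, HNRNPD, CLK3 and CCNL2 between -0.67 and -0.66.

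Interferon-stimulated genes were higher in 16 of 40 cases and lower in 5, with a median of 0.23, and under the t alternative in 5 and 1. The antiviral ligase TRIM22 had 1.25 ± 0.10, IFI27 1.06 ± 0.13 and the ubiquitin-like ISG15 0.73 ± 0.09, while PARP12 fell by 1.04 ± 0.11. SDF1 over DMSO had 0 of these genes higher and 30 lower, with a median of -0.71, and again shares the SDF1 cultures. In SDF1_SKHS over DMSO 4 were higher and 20 lower, with a median of -0.57. Of 21 genes of MHC class I presentation 10 rose and 2 fell (1 and 1 under the t alternative), led by the peptide transporter TAP1 at 0.72 ± 0.09. SDF1 over DMSO had 1 of these 21 higher and 12 lower, with a median of -0.32 and TAP1 at -0.67. In SDF1_SKHS over DMSO 4 were higher and 7 lower, with a median of -0.15.

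**Figure D5:**
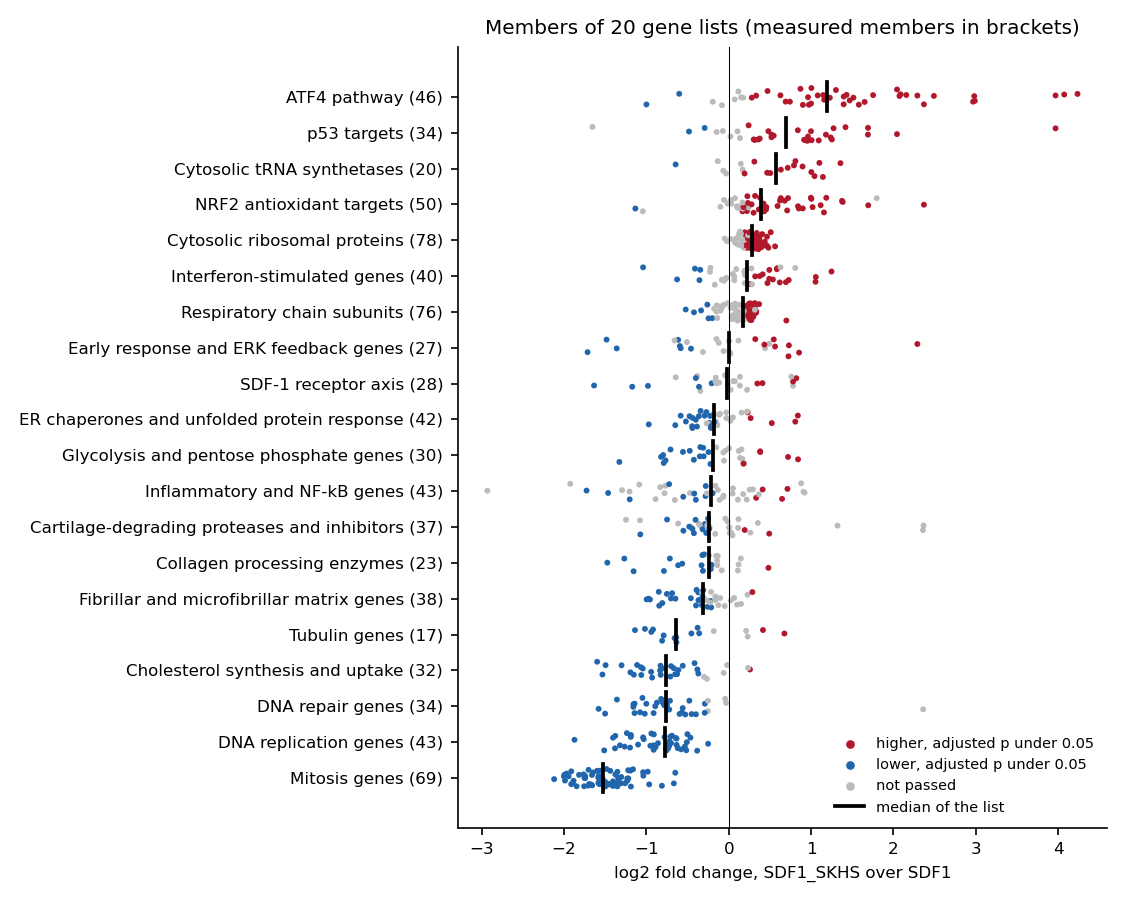
Log2 fold changes of SDF1_SKHS over SDF1 (x axis) for the measured members of 20 gene lists (rows), coloured by whether they passed an adjusted p of 0.05, with the list median as a black bar. Medians run from 1.19 for the ATF4 pathway to -1.53 for mitosis genes.

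Set directly against astragaloside IV, SKHS differed in 3389 of 17927 genes (18.9%), 1524 higher and 1865 lower. ADM2 and GDF15 were higher in SDF1_SKHS by 3.90 ± 0.40 and 4.19 ± 0.29 on the log2 scale, and KIF20A and PLK1 lower by 1.89 ± 0.11 and 1.87 ± 0.10. HMGCS1 fell by 1.18 ± 0.13 and CDKN1A rose by 1.71 ± 0.11 in the same comparison. Set against DMSO, the SDF1_SKHS cultures differed in 6678 of 17936 genes (37.2%), 3246 higher and 3432 lower. The standard errors of both comparisons are upper bounds, since the spread of the shared SDF1 cultures cannot be taken out.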

How the data were processed

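RNA of 12 C28/I2 cultures was sequenced, and the deposited table holds log2 fold changes, p-values and q-values for 3 comparisons, made by the authors with DESeq2 per the file headers. The submitters' processing notes list Bowtie2 2.2.5, RSEM 1.2.12, DESeq2 1.4.5 and GRCh38.p13, without order. Whether fold changes were shrunken toward 0 is not given in the sources used here. The table holds no counts, so depth is unknown and no interval from counts was computed. In each header the later group was taken as numerator, since all 315 genes with a value here but none in SDF1 over DMSO were positive. The q-value equals a Benjamini-Hochberg adjustment of the p-value (largest difference 1.55e-15) and is called adjusted p. The implied standard error was found by dividing each absolute log2 fold change by the normal deviate that its p-value corresponds to, as for a Wald test. It was run on simulated data whose p-values came from the same normal formula. That run could not show whether it holds for the authors' p-values. SDF1_SKHS over SDF1_AS4 and over DMSO were computed as the difference or sum of deposited values, with both implied variances added, a normal test and Benjamini-Hochberg adjustment over all genes. The 49 gene lists, their members and the promoter letters were chosen with earlier results of these data known. Genes named were the 12 highest and 12 lowest precise changes, the 6 smallest p-values each way, up to 4 precise called genes per list and direction and a panel of 13 SDF-1, protease and cartilage genes. Other list members were named after their values were seen. Lengths, GC content and coordinates came from GENCODE 29 (97.4% of symbols matched). Alternatives were a threshold of 0.01, a standard error limit of 0.5, a t distribution with 4 degrees of freedom, centring, trend removal, a 1.5-fold minimum and equal spread. Python 3.11.15 with numpy 2.4.6, pandas 2.3.3, scipy 1.17.1 and matplotlib 3.10.9 was used. Values of a few single genes are not reported here.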

Additional observations from a re-analysis of the deposited data

How the results depend on the processing

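The 2877 higher and 3041 lower genes became 524 and 826 under Student's distribution (t) with 4 degrees of freedom, and 893 and 1322 with a minimum of 1.5-fold. Those counts stayed within 1.5 times of the reported ones at an adjusted p of 0.01, with a standard error limit of 0.5, after centring and after removal of length and GC trends. Genes that differed between SDF1_SKHS and SDF1_AS4 became 5708 when equal spread was assumed in all groups, because that assumption lowers the standard errors. No named gene with a call and an annotation changed direction when the length and GC trends were removed. The other alternatives could hardly test direction. A stricter threshold and the t distribution leave the fold change as it is, and centring moves it by 0.01. Of the 329 named genes 128 lost the threshold under the t distribution, 20 at an adjusted p of 0.01 and 5 without the trends. List medians moved by over 0.1 with only precise members in 5 of 49 lists, among them p53 targets (0.84). No paired analysis was possible because the table holds no values per culture, and leaving out each replicate was not run for the same reason. Genes with few reads cannot be located by level here, and their wide implied standard errors limit what can be said of COL2A1, IL6, CXCL12 and ADAMTS5.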

Other observations

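Autophagy genes rose in 23 of 56 cases and fell in 3 (15.8% and 16.7% of all genes were higher and lower), with the cargo receptor SQSTM1 at 0.71 ± 0.07, GABARAPL2 at 0.51 ± 0.08 and MAP1LC3B at 0.44 ± 0.07, while the lipid transfer gene ATG2A fell by 1.12 ± 0.11. TFEB, the factor of lysosome genes, rose by 1.11 ± 0.16. Lysosome genes had 12 of 59 higher and 12 lower, beside the same 15.8% and 16.7% of all genes. Clock genes were higher in 10 of 22 cases and lower in 1, led by the repressor NR1D1 (0.93 ± 0.09). Linker and core histone genes of the clustered families H2AC6, H2BC5 and H1-2 had 1.66 ± 0.13, 1.44 ± 0.13 and 1.2 ± 0.09, and their copies are close in sequence, while H2AX fell by 1.63 ± 0.09. Over 17 histone genes 5 rose and 3 fell.

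Secreted growth factors rose in 10 of 39 cases and fell in 7. Beside this and every other list count of this paragraph stand 15.8% higher and 16.7% lower among all genes. FGF2 had 1.10 ± 0.13 and TGFA 0.98 ± 0.16, while FGF5 had -1.34 ± 0.12 and STC1 -0.84 ± 0.19. In the TGF-β and BMP list 9 of 38 rose and 8 fell, with the inhibitory SMAD6 at 1.4 ± 0.07 and TGFBR2 at 0.89 ± 0.09. WNT7B had 1.34 ± 0.12 in a Wnt list with 4 of 36 higher and 11 lower. YAP and TEAD targets were split, 10 of 24 higher and 6 lower, with DLC1 at 1.19 ± 0.08 and IGFBP3 at -0.67 ± 0.06. Of 17 genes of the aryl hydrocarbon receptor pathway 3 rose and 1 fell. SLC7A5, NQO1 and STC2 (0.69 ± 0.06) rose, of which SLC7A5 and STC2 also stand in the ATF4 list and NQO1 in the NRF2 list, and the cytochrome gene CYP1A1 fell by 0.88 ± 0.16. Keratins and their associated genes had 6 of 17 higher and 1 lower, led by KRTAP1-5 (1.34 ± 0.20), a member of a family of close copies.

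Of 21 markers of other cell types 0 rose and 4 fell (RBFOX3, VWF, CLDN4 and MYH2), and 5 were precise, with a median implied standard error of 0.854. Under Student's distribution (t) with 4 degrees of freedom the counts of higher and lower genes were 7 and 1 for autophagy, 2 and 1 for lysosome, 4 and 0 for clock, 5 and 3 for histones, 5 and 2 for growth factors, 5 and 3 for TGF-β and BMP, 2 and 1 for Wnt, 5 and 1 for YAP and TEAD, 3 and 0 for the aryl hydrocarbon receptor, 2 and 0 for keratins and 0 and 1 for markers of other cell types. STC1, CYP1A1, VWF, CLDN4 and MYH2 lost their calls, with adjusted p from 0.0563 to 0.131. The table gives no levels, so whether these markers were expressed at all was not tested.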
